A study of Mus musculus with 19 samples.

Results

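The genes described here are 10 plasma membrane transporters of amino acids and of taurine, among 41388 genes counted in single mouse blastocysts. They are *Slc6a6*, *Slc7a5*, *Slc3a2*, *Slc38a2*, *Slc38a1*, *Slc7a11*, *Slc1a5*, *Slc6a9*, *Slc6a14* and *Slc7a3*, matched by their GRCm38 symbols to the Ensembl identifiers of the count table, in which all 10 had at least 1 read. The set was chosen on the lower level of *Slc6a6* in *Upf2*-null embryos, so the difference between the genotypes is a description for these genes, and no p-value of it is given. Standard errors and whether a gene passed a threshold come from the same fit and are likewise a description. All 10 passed the filter on low counts used for the fit, at least 10 reads in at least 1 embryo, *Slc7a11* and *Slc6a9* only through controls.

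RNA was sequenced from 19 single whole blastocysts at E3.25, of which 8 were *Upf2*-null (*Upf2* -/-) and 11 were control littermates (*Upf2* +/+), to ask which transcripts depend on UPF2, a core factor of nonsense-mediated RNA decay (NMD). All embryos came from crosses of *Upf2*-heterozygous mice, which were made from a floxed line on the C57BL/6 background with Cre recombinase under the *E2a* promoter. The null allele lacks exons 2 and 3 and still gives a truncated protein without NMD activity, and the embryos may also hold UPF2 laid down in the oocyte. The paper describes early blastocysts as grown from zygotes in M16 medium, whose standard recipe has no free amino acids. Such blastocysts were taken 90 to 94 h after hCG. Some of its experiments used blastocysts flushed from the mother, and which source the sequenced embryos had is not stated. Each library is a whole embryo, so that fewer cells of a type and less RNA per cell cannot be told apart.

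A blastocyst takes up amino acids for protein synthesis and for signalling through mTORC1, and takes up glycine, taurine and related small molecules to keep its volume against the salt of its surroundings. Some carriers are single proteins, such as the sodium-coupled SLC6 and SLC38 families, whereas SLC7A5 and SLC7A11 reach the cell surface only as a pair with the heavy chain SLC3A2. Several of the genes, among them *Slc7a11* and *Slc7a5*, are known in other cells as targets of ATF4, the transcription factor of the amino acid response.

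The *Upf2*-null libraries held 4068350 to 5993745 counts (median 4824546.5) and the control libraries 4056072 to 5854659 counts (median 5008508), and levels are given as CPM, counts relative to the TMM-scaled total of the library. *Upf2* itself had 90.9 ± 21.3 CPM in 8 *Upf2*-null embryos, against 57.8 ± 16.5 CPM in 11 controls (± SD), a value that includes the exons left in the null allele and so does not check the genotype. Summed trophectoderm markers ran from 1438 to 1974 CPM in *Upf2*-null embryos and from 958 to 2026 CPM in controls, and epiblast markers from 797 to 1150 CPM in *Upf2*-null embryos and from 888 to 1478 CPM in controls. Primitive endoderm markers ran from 854 to 1109 CPM in *Upf2*-null embryos and from 818 to 1093 CPM in controls, but *Dab2*, which is also known in trophectoderm, made up most of that sum. The 9 primitive endoderm markers without *Dab2* summed to 290 to 401 CPM in *Upf2*-null embryos and 206 to 442 CPM in controls, and *Gata4*, *Sox17*, *Sox7*, *Lama1* and *Foxa2* averaged at most 4.57 CPM in either genotype. Of single lineage genes, *Nanog* had 175 ± 32.2 CPM in 8 *Upf2*-null embryos, against 243 ± 45.9 CPM in 11 controls (± SD), and was called lower by DESeq2 but not by edgeR or voom. *Gata6* had 144 ± 31.2 CPM in *Upf2*-null embryos, against 136 ± 36.4 CPM in controls, and *Cdx2* had 18.7 ± 13.2 CPM, against 18.3 ± 10.4 CPM in controls; neither was called by the 3 tools. Of the markers of cumulus and granulosa cells, which surround the oocyte, *Fshr* and *Cyp19a1* were at 0 in all embryos, and the 10 summed to 19.6 to 52.3 CPM in *Upf2*-null embryos and 10.6 to 76.0 CPM in controls. Nearly all of that was *Amhr2*, since the other 9 summed to 0 to 2.39 CPM in *Upf2*-null embryos and 0 to 0.898 CPM in controls. Those of the oocyte summed to 4.07 to 39.8 CPM in *Upf2*-null embryos and 9.05 to 84.8 CPM in controls.

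A pair of embryos stood apart in the transporters. Of the 7 transporters that averaged at least 10 CPM in controls, *Upf2*-null embryo 2 had the lowest value of its genotype for 6 and control embryo 5 for 5. *Upf2*-null embryo 2 had 15547 genes detected and control embryo 5 had 14522, each the fewest of its genotype. In the 10 transporters together these embryos had 278 and 381 CPM. The log2 fold changes and spreads in which they have the lowest values are given with and without both.

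*Slc6a6* encodes TauT, the sodium- and chloride-dependent transporter that carries taurine and β-alanine into cells. The gene lies on the plus strand of chromosome 6 from 91684053 to 91759066 (GRCm38), and its main transcript has 15 exons, encodes 621 residues and ends in a 3′ UTR of 4009 bases. Its exons share 117 bases with *Gm44981*, an annotated gene on the opposite strand that is not in the count table, and whether counting used the strand is not stated. The 8 *Upf2*-null embryos had 139, 50.7, 154, 99.5, 118, 107, 113 and 69.9 CPM, on 286 to 883 counts each. The 11 controls ran from 121 CPM through a median of 194 CPM to 344 CPM, on 538 to 1627 counts each. All 8 *Upf2*-null embryos were below the control median and 6 of them below every control, while embryos 1 and 3 lay within the control range. The *Slc6a6* means were 106 ± 33.9 CPM in 8 *Upf2*-null embryos, against 204 ± 63.4 CPM in 11 controls (± SD), which is −0.94 ± 0.21 (SE) as log2 fold change. Without *Upf2*-null embryo 2 and control embryo 5 it was −0.89 ± 0.18 (SE). The highest control, embryo 4, had 344 CPM, and the next had 258 CPM. The coefficient of variation among embryos was 31.8% in *Upf2*-null embryos and 31.0% in controls, where the medians were 32.2% in *Upf2*-null embryos and 30.8% in controls over the 9256 genes with a mean of at least 10 CPM in controls. Without *Upf2*-null embryo 2 and control embryo 5 that of *Slc6a6* was 23.8% over 7 *Upf2*-null embryos and 28.3% over 10 controls.

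**Figure D1:**
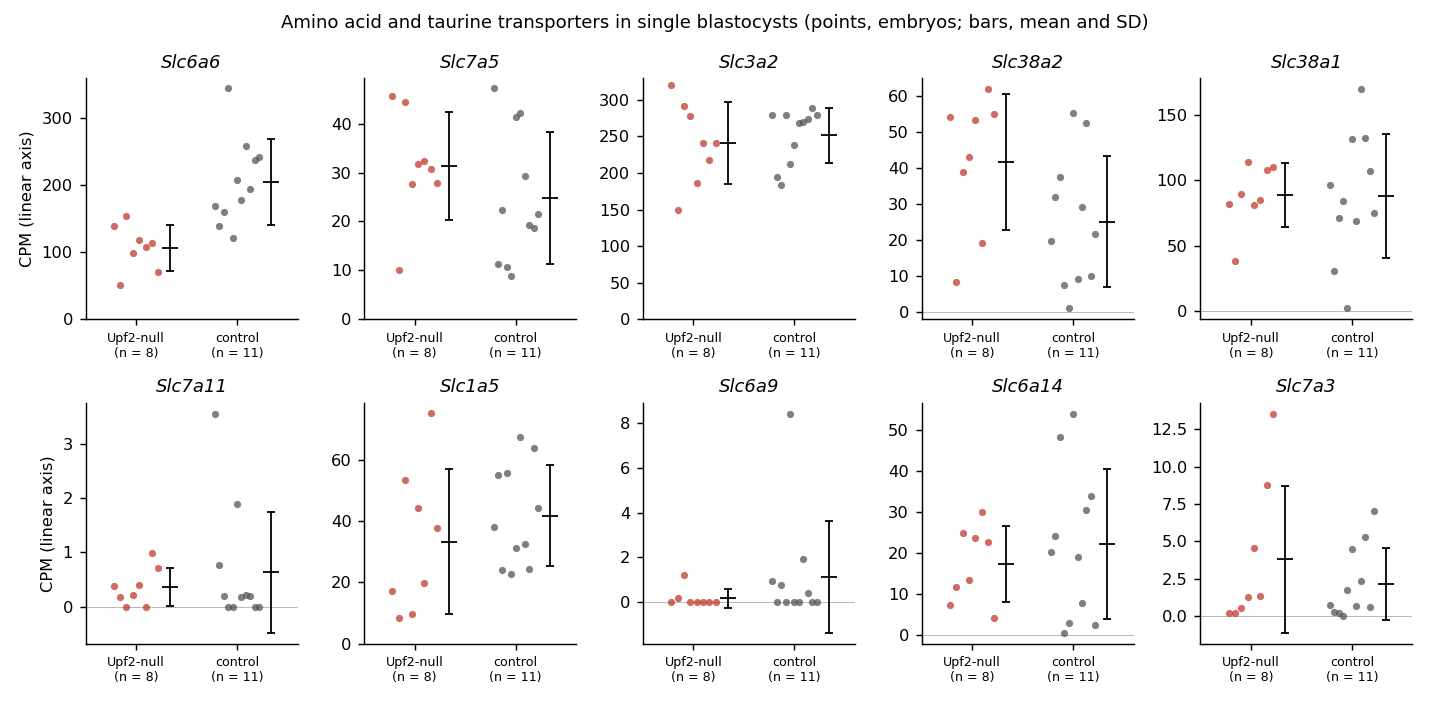
CPM (linear axes) of the 10 transporters in each *Upf2*-null (red, n = 8) and control (grey, n = 11) blastocyst, 1 panel per gene; points are single embryos, with mean and SD drawn beside them. *Slc6a6* averages 106 CPM across null embryos, against 204 CPM across controls, and the points of the 2 genotypes overlap in every panel.

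*Slc3a2* encodes the heavy chain, known as 4F2hc or CD98, that brings several SLC7 light chains to the cell surface. It was the most abundant of the 10. The *Upf2*-null embryos ran from 150 CPM through a median of 241 CPM to 321 CPM, and the controls from 184 CPM through 270 CPM to 288 CPM. The genotypes overlapped over nearly their whole range, with means of 241 ± 56.2 CPM in 8 *Upf2*-null embryos, against 252 ± 37.9 CPM in 11 controls (± SD), and a log2 fold change of −0.06 ± 0.13 (SE). It also varied least among control embryos, with a coefficient of variation of 15.04%, against 23.3% among *Upf2*-null embryos. Without *Upf2*-null embryo 2, the lowest of its genotype, and control embryo 5 the log2 fold change of *Slc3a2* was −0.01 ± 0.11 (SE), and the coefficient of variation was 18.1% over 7 *Upf2*-null embryos and 14.7% over 10 controls.

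*Slc7a5* encodes LAT1, the light chain that exchanges leucine and other large neutral amino acids. It had 10.1 to 45.6 CPM (median 31.2) in *Upf2*-null embryos and 8.84 to 47.3 CPM (median 21.6) in controls. The ranges were nearly the same, although 7 of 8 *Upf2*-null embryos were above the control median. The means were 31.3 ± 11.1 CPM in 8 *Upf2*-null embryos, against 24.8 ± 13.5 CPM in 11 controls (± SD), which is 0.33 ± 0.33 (SE) as log2 fold change. Without *Upf2*-null embryo 2 and control embryo 5, the lowest of their genotypes, it was 0.38 ± 0.29 (SE).

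*Slc7a11* encodes xCT, the light chain that takes up cystine in exchange for glutamate. Its RNA was almost absent: the 8 *Upf2*-null embryos held 14 counts between them and the 11 controls held 34. *Upf2*-null embryos had 0 to 5 counts each, with 2 of 8 at 0, and controls 0 to 19, with 4 of 11 at 0. At these depths 1 count was worth 0.173 to 0.257 CPM, and 19 of the 34 control counts came from embryo 1. A difference between the genotypes in *Slc7a11* was not detectable at this depth (log2 fold change −0.78 ± 1.09 SE).

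The upstream sequence of *Slc7a11* is shown because it holds matches to the element through which ATF4 is known to act on amino acid genes. The 100 bases before its start, chr3:50443614-50443713 on the minus strand (RefSeq, GRCm38.p6), is given 5′ to 3′, with matches to the ATF4 composite element TGATGNAA on either strand in capitals.

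Slc7a11 upstream: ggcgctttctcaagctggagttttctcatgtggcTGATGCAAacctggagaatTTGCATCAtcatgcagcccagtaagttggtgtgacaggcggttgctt

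The 2 matches lie from −66 to −59 on the coding strand and from −47 to −40 on the other, counted from the start. The second overlaps a match on the other strand to the antioxidant response element TGANNNNGC. Over the 100 bases before each start in 32851 promoter windows (RefSeq), 1.54% held at least 1 match to the ATF4 element and 15.9% at least 1 to the antioxidant response element. Over the whole windows, from 250 bases before a start to 50 after it, these shares were 3.97% and 41.3%, and among the 5 transporters with a window in that table, *Slc38a2*, *Slc3a2*, *Slc6a14*, *Slc6a9* and *Slc7a11*, only *Slc7a11* had a match to the ATF4 element in its window. A match of letters is a description and not a bound site. Sequence outside the windows, such as introns further in, was not searched. The RNA of *Atf4* does not measure ATF4 protein. *Atf4* had 265 ± 27.1 CPM in 8 *Upf2*-null embryos, against 196 ± 35.2 CPM in 11 controls (± SD), above the control median in 8 of 8. It was not called by edgeR (adjusted p = 0.111). *Ddit3*, which encodes the stress factor CHOP, had 66.0 ± 14.0 CPM in 8 *Upf2*-null embryos, against 26.1 ± 9.87 CPM in 11 controls (± SD). All 8 were above every control, and *Ddit3* was called higher by edgeR (adjusted p = 0.0251). *Slc7a11* had at most 0.996 CPM in any of the same 8 embryos and at most 3.57 CPM in any control. With so few counts in both genotypes, whether ATF4 acts on *Slc7a11* was not tested.

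*Slc38a1* and *Slc38a2* encode SNAT1 and SNAT2, sodium-coupled importers of glutamine, alanine and other small neutral amino acids. They lie side by side on the minus strand of chromosome 15, from 96571418 to 96642913 and from 96687392 to 96699730. *Slc38a1* had 38.3 to 114 CPM (median 87.3) in *Upf2*-null embryos and 2.21 to 170 CPM (median 84.5) in controls. Its means were almost equal, 88.6 ± 24.4 CPM in 8 *Upf2*-null embryos, against 88.3 ± 47.4 CPM in 11 controls (± SD), while its spread was not: the coefficient of variation was 27.5% in *Upf2*-null embryos and 53.6% in controls. The lowest control value, 2.21 CPM on 10 counts, was that of embryo 5. Without *Upf2*-null embryo 2 and control embryo 5 the coefficient of variation of *Slc38a1* was 15.1% over 7 *Upf2*-null embryos and 41.1% over 10 controls, a difference that was not tested. *Slc38a2*, which in other cells is induced when amino acids run short, had 8.50 to 61.9 CPM (median 48.3) in *Upf2*-null embryos and 1.11 to 55.5 CPM (median 21.7) in controls. Its means were 41.8 ± 18.9 CPM in 8 *Upf2*-null embryos, against 25.2 ± 18.2 CPM in 11 controls (± SD), which is 0.73 ± 0.49 (SE) as log2 fold change, with 6 of 8 *Upf2*-null embryos above the control median and 1 above every control. Without the same 2 embryos the log2 fold change of *Slc38a2* was 0.76 ± 0.38 (SE) and that of *Slc38a1* −0.02 ± 0.24 (SE).

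*Slc1a5* encodes ASCT2, an exchanger of glutamine, serine and other neutral amino acids. It had 8.33 to 75.3 CPM (median 28.8) in *Upf2*-null embryos and 22.8 to 67.5 CPM (median 38.1) in controls. The *Upf2*-null embryos fell on either side of the controls: 4 of 8 were below every control and 1 was above every control. The coefficient of variation was 71.1% in *Upf2*-null embryos and 39.4% in controls, with means of 33.3 ± 23.7 CPM in 8 *Upf2*-null embryos, against 41.8 ± 16.5 CPM in 11 controls (± SD), and a log2 fold change of −0.33 ± 0.37 (SE). Without *Upf2*-null embryo 2 and control embryo 5, the lowest of their genotypes, the coefficient of variation was 62.8% over 7 *Upf2*-null embryos and 36.7% over 10 controls, and the log2 fold change −0.25 ± 0.35 (SE). The log2 fold change of *Slc1a5* moved with single embryos, to −0.18 without *Upf2*-null embryo 2, −0.19 without embryo 4 and −0.62 without embryo 7, the highest. The difference in spread was not tested.

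*Slc6a9* encodes GLYT1, which in the mouse is known as the carrier of glycine used by early embryos to regulate their volume. At E3.25 the *Upf2*-null embryos held 8 counts between them, with 6 of 8 at 0, and the controls 58, with 6 of 11 at 0. Control embryo 5 held 38 of the 58, which is 8.40 CPM, against 1.22 CPM in the highest *Upf2*-null embryo. Its exons share bases with *Ccdc24*, *B4galt2* and *Gm17114* on the opposite strand, and whether counting used the strand is not stated, so these few reads cannot be assigned with certainty. Its log2 fold change was −2.49 with a standard error of 1.43, and without control embryo 5 too few counts were left for it to be tested.

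*Slc6a14*, on the X chromosome, encodes the broad carrier of neutral and cationic amino acids known as system B0,+, which in the mouse is known for leucine uptake by the trophectoderm before implantation. It had 4.28 to 30.1 CPM (median 18.1) in *Upf2*-null embryos and 0.634 to 54.1 CPM (median 20.5) in controls. The *Upf2*-null embryos all lay within the control range, with means of 17.3 ± 9.27 CPM, against 22.2 ± 18.3 CPM in controls (± SD), and a log2 fold change of −0.36 ± 0.60 (SE). That difference was −0.22 without *Upf2*-null embryo 8, −0.18 without control embryo 3 and −0.15 without control embryo 6, and on the scaled table deposited beside the counts it was 0.10. *Slc7a3*, also on the X chromosome, encodes CAT3, a carrier of arginine and lysine. It had 0.177 to 13.6 CPM (median 1.32) in *Upf2*-null embryos and 0 to 7.01 CPM (median 0.751) in controls, and 2 of 8 *Upf2*-null embryos were above every control (log2 fold change 0.82 ± 0.90 SE). Those were embryos 7 and 8, and the log2 fold change of *Slc7a3* was 0.53 without embryo 7 and 0.16 without embryo 8.

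Between the genotypes, the log2 fold change was below 0 for 6 of the 10 transporters and above 0 for 4, with a median of −0.20, where the median of all 17137 genes tested was −0.02. At an adjusted p under 0.1 from edgeR, 1 of the 10, *Slc6a6*, was lower and 0 were higher, against 0.0175% of all genes tested that were lower (3 genes) and 0.175% that were higher (30 genes). That call is the one the set was put together around, and nothing is read from the count.

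**Figure D2:**
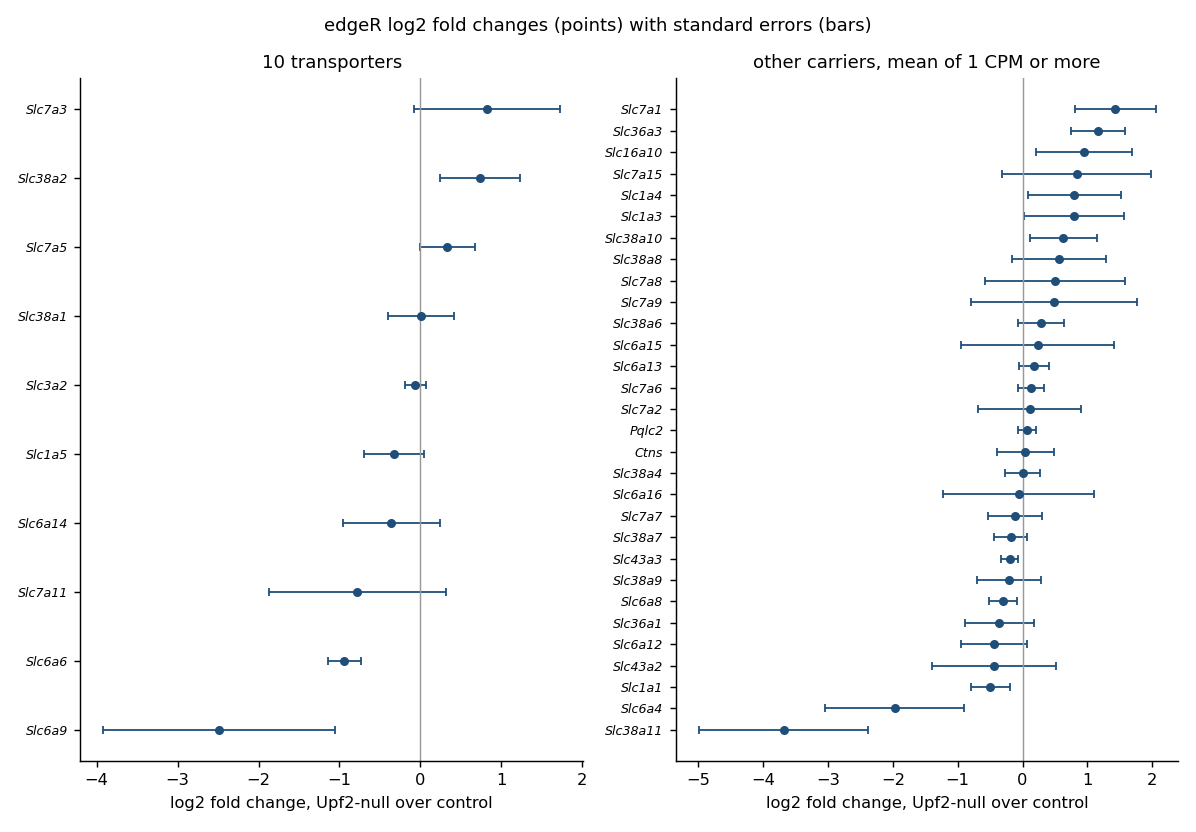
Log2 fold changes of *Upf2*-null over control embryos from edgeR (points) with standard errors (bars), for the 10 transporters (left) and for the 30 other carriers, taken by family and not by substrate, with a mean of at least 1 CPM over the 19 embryos (right). *Slc6a6* is at −0.94 with a standard error of 0.21; of the other carriers 18 lie above 0 and 12 below.

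The part of the transporter RNA taken by *Slc6a6* restates the contrast on which it was chosen. The 10 transporters summed to 564 ± 130 CPM in 8 *Upf2*-null embryos, against 662 ± 135 CPM in 11 controls (± SD), and the ranges, 278 to 699 CPM and 381 to 801 CPM, overlapped. *Slc6a6* made up 12.5% to 22.03% of the sum in *Upf2*-null embryos and 25.0% to 43.9% in controls. The genotypes did not overlap in this share, although in CPM *Upf2*-null embryos 1 and 3 lay within the control range. *Upf2*-null embryo 2, whose summed level was the lowest, had a share of 18.2%, near the median of its genotype, 19.1%, and control embryo 5 had 31.7%, against a median of 29.1%. The low *Slc6a6* of *Upf2*-null embryo 2 thus came with low values of the other transporters, and its share did not stand apart. *Slc3a2* made up 34.1% to 53.9% in *Upf2*-null embryos and 31.2% to 55.7% in controls. *Slc3a2* and *Slc6a6* together averaged 62.2% of the sum in *Upf2*-null embryos and 69.5% in controls. These shares use the same contrast that chose *Slc6a6* and are a description. How many other genes would separate the genotypes in this way was not counted.

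**Figure D3:**
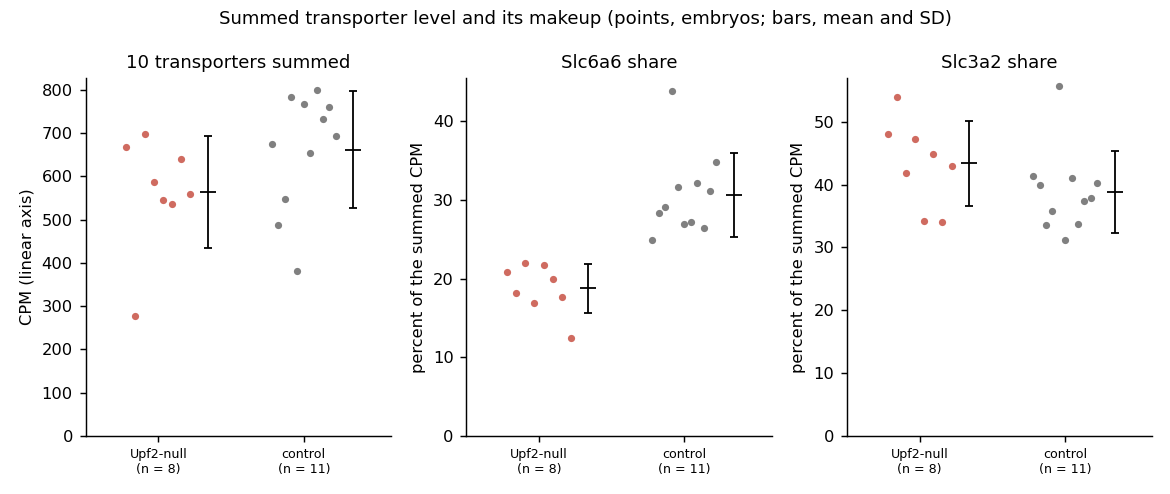
Summed CPM of the 10 transporters (left), and the percent of that sum taken by *Slc6a6* (middle) and by *Slc3a2* (right), in *Upf2*-null (red, n = 8) and control (grey, n = 11) embryos; points are embryos and bars give the mean and SD. The *Slc6a6* share, which restates the contrast that chose the gene, is 12.5% to 22.03% in *Upf2*-null embryos and 25.0% to 43.9% in controls. The summed level and the *Slc3a2* share overlap.

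Which of the transporters a blastocyst expresses most was not used to choose them. Levels were compared per kb of annotated exon among the 11 controls. The order depends on the length used. For *Slc38a1* the union of annotated exons has 17236 bases and the longest coding transcript 7266. For *Slc38a2* these lengths are 8838 and 4660 bases. The order of mean levels was *Slc3a2* (71.3 ± 10.7 CPM per kb), *Slc6a6* (24.2 ± 7.5), *Slc1a5* (10.0 ± 3.95), *Slc7a5* (6.69 ± 3.63), *Slc6a14* (6.48 ± 5.33), *Slc38a1* (5.12 ± 2.75), *Slc38a2* (2.85 ± 2.05), *Slc7a3* (0.562 ± 0.635), *Slc6a9* (0.220 ± 0.484) and *Slc7a11* (0.0457 ± 0.0806), each as mean and SD over 11 embryos. Of the 9 pairs of neighbours in this order, 3 differed beyond the spread between embryos by a two-sided exact sign-flip permutation test of the log2 ratio, with p-values adjusted over the 9 pairs and a threshold of 0.05. *Slc3a2* was above *Slc6a6* in 11 of 11 controls, by 1.58 ± 0.31 on the log2 scale (SD; adjusted exact p = 0.00439), and *Slc6a6* was above *Slc1a5* in 11 of 11, by 1.27 ± 0.56 (adjusted exact p = 0.00439); 0.000977 before adjustment is the smallest p that 11 embryos allow. *Slc38a2* was above *Slc7a3* in 10 of 11 controls, by 1.56 ± 1.05 (adjusted exact p = 0.00879). From *Slc1a5* to *Slc38a2* no neighbours passed. The closest pairs to the threshold were *Slc38a1* above *Slc38a2* (0.78 ± 0.93, adjusted exact p = 0.0505) and *Slc1a5* above *Slc7a5* (0.63 ± 0.91, adjusted exact p = 0.0914). Only neighbours were compared, so these carriers need not be alike, and the ends of this stretch (10.0 and 2.85 CPM per kb) were not tested against each other. *Slc7a3*, *Slc6a9* and *Slc7a11* at the bottom did not pass in turn (adjusted exact p = 0.188 and 0.352). Without control embryo 5, 5 of the 9 pairs passed. In *Upf2*-null embryos *Slc3a2* and *Slc6a6* kept the top ranks, with 68.3 ± 15.9 and 12.6 ± 4.00 CPM per kb (SD, n = 8).

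**Figure D4:**
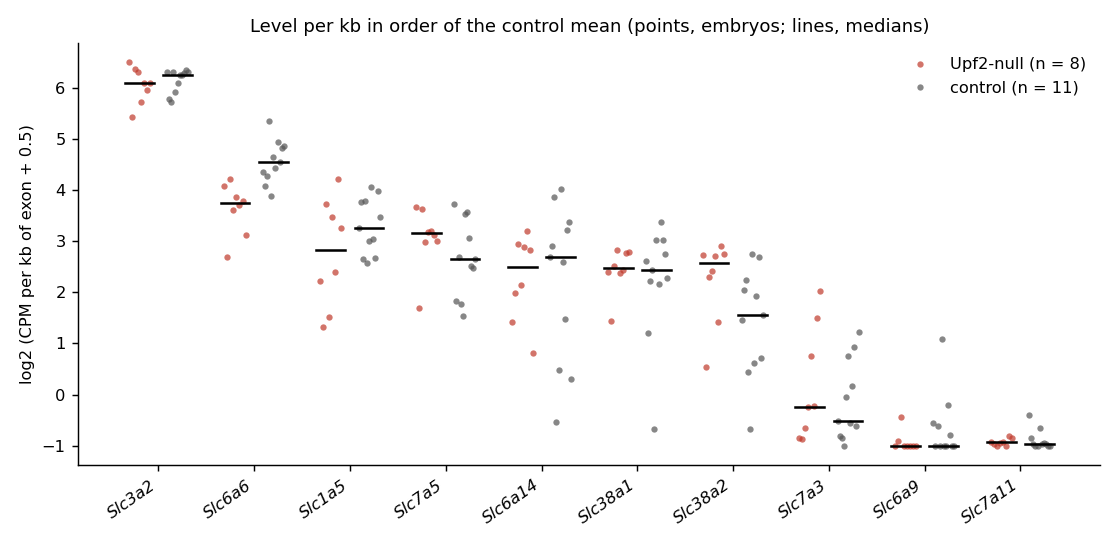
Level of each transporter as log2 of CPM per kb of annotated exon plus 0.5, in *Upf2*-null (red, n = 8) and control (grey, n = 11) embryos, ordered from left to right by the control mean; points are embryos and lines are medians. *Slc3a2* and *Slc6a6* lead, 5 carriers lie in the middle, and *Slc7a3*, *Slc6a9* and *Slc7a11* are at the bottom, where −1 stands for a count of 0.

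Partners and close relatives were then compared across the 19 embryos, in log2 CPM with the mean of each genotype removed. Of 4 relations, 2 passed a permutation test at 0.05 after adjustment over the 4, and both rested on few embryos. *Slc38a1* and *Slc38a2* had a Pearson r of 0.74 (n = 19, permutation p = 0.00563, adjusted p = 0.0225) but a Spearman rho of 0.41 (permutation p = 0.0856), and r was 0.18 without the 2 embryos farthest from the median. Within genotypes r was 0.84 over 8 *Upf2*-null embryos (permutation p = 0.0369) and 0.76 over 11 controls (permutation p = 0.0300). Without control embryo 5 alone r was 0.40 (adjusted permutation p = 0.213). *Slc7a5* and its heavy chain *Slc3a2* had r = 0.54 (n = 19, permutation p = 0.0153, adjusted p = 0.0306), rho = 0.28 (permutation p = 0.241) and r = 0.28 without the 2 farthest embryos. It was 0.83 over the 8 *Upf2*-null embryos (permutation p = 0.0101) and 0.34 over the 11 controls (permutation p = 0.305), and without *Upf2*-null embryo 2 it was 0.35 over all the others (adjusted permutation p = 0.299). *Slc7a11* and *Slc3a2* (r = −0.08, rho = −0.21, permutation p = 0.715 and 0.353, r = −0.25 without the 2 farthest) and *Slc6a6* and *Slc6a9* (r = −0.23, rho = −0.21, permutation p = 0.325 and 0.386, r = 0.14 without the 2 farthest) did not pass.

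**Figure D5:**
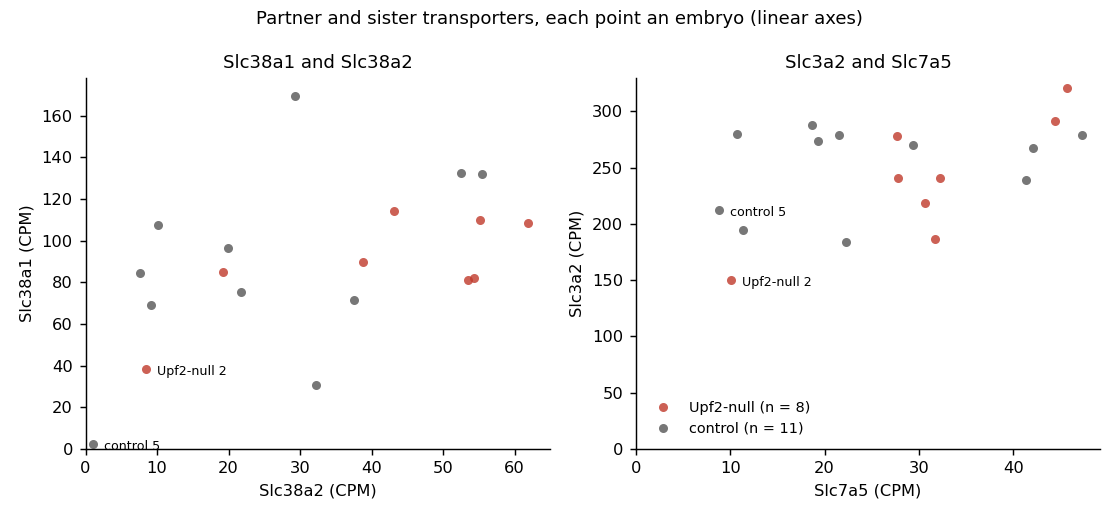
*Slc38a1* against *Slc38a2* (left) and *Slc3a2* against *Slc7a5* (right), both axes in CPM on linear scales, in *Upf2*-null (red, n = 8) and control (grey, n = 11) embryos. *Upf2*-null embryo 2 and control embryo 5, labelled, lie at the low end of both panels, and without the 2 embryos farthest from the median r is 0.18 for *Slc38a1* and *Slc38a2* and 0.28 for *Slc7a5* and *Slc3a2*.

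The variation of *Slc6a6* among embryos of a genotype was set against 7 measures of the library: the summed markers of epiblast, primitive endoderm, trophectoderm, cumulus and granulosa cells and oocyte, the total count and the number of genes detected. None passed 0.05 after adjustment over the 7. The nearest was the number of genes detected (n = 19, r = 0.48, permutation p = 0.0379, adjusted p = 0.266, rho = 0.31 with permutation p = 0.216), and r was 0.01 without the 2 farthest embryos, with 0.80 within the 8 *Upf2*-null embryos and 0.34 within the 11 controls. Summed trophectoderm markers had r = −0.40 (permutation p = 0.0784, adjusted p = 0.274), rho = −0.44 (permutation p = 0.0557) and r = −0.12 without the 2 farthest, with −0.35 within *Upf2*-null embryos and −0.47 within controls. For 2 of the measures r had opposite signs within the genotypes, each over few embryos, and whether the genotypes differ in it was not tested. The primitive endoderm sum had r = −0.02 over the 19 embryos, 0.61 within *Upf2*-null embryos and −0.56 within controls, and the cumulus and granulosa sum, which is nearly all *Amhr2*, had 0.20 over the 19, −0.55 within *Upf2*-null embryos and 0.60 within controls. For the oocyte sum r was 0.34 over the 19, 0.66 within *Upf2*-null embryos and 0.05 within controls. These values within genotypes are a description and were not tested.

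Of 9255 other genes with a mean of at least 10 CPM in controls, the 5 whose log2 CPM followed *Slc6a6* most closely over the 11 controls were *Golph3*, *Phf10*, *Zhx3*, *H2-T22* and *Pcgf3*, with r of 0.90, 0.89, 0.88, 0.85 and 0.85. Over the 8 *Upf2*-null embryos the same genes had r of −0.31, 0.44, −0.43, −0.31 and 0.13. These are the highest of many correlations over few embryos of whole libraries and are given as a description.

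In the annotation (GENCODE M21), the transporters were examined for the features by which NMD is known to find its targets. None of the 10 main transcripts has an exon junction more than 50 bases after the stop codon, a feature of 0.365% of 21344 coding genes (78 genes). Main transcripts were taken only from those annotated as protein coding, apart from those annotated as NMD substrates. Few such junctions appear among them, so their absence is not read as a result. The paper instead scored a gene by any of its transcripts. *Slc6a6* and *Slc6a9* each have 1 transcript annotated as an NMD substrate, a class that 20.8% of coding genes hold. The main transcripts of *Slc6a6*, *Slc7a11*, *Slc1a5* and *Slc6a14* have 1 upstream open reading frame each, that of *Slc7a3* has 4 and that of *Slc38a1* has 8, where 42.5% of coding genes have at least 1. The 3′ UTRs run to 4009 bases in *Slc6a6*, 5293 in *Slc38a1* and 7364 in *Slc7a11*, against a median of 737 over coding genes. Those of *Slc38a2* (2735), *Slc7a5* (1890), *Slc6a14* (1265) and *Slc3a2* (841) are also above that median, and those of *Slc1a5* (535), *Slc7a3* (240) and *Slc6a9* (183) below it. Counts per gene add up all transcripts, so which *Slc6a6* transcript was lower was not measured here.

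Further carriers were taken from families of amino acid carriers and not by substrate. Some of them, such as *Slc6a4*, *Slc6a8* and *Slc43a3*, are known for other substrates. Of 56 such carriers other than the 10, 55 had at least 1 count, 31 had a mean of at least 1 CPM in controls and 14 at least 10 CPM. Of the 37 tested, the log2 fold change was above 0 for 22 and below 0 for 15, with a median of 0.11. None was called by edgeR or by DESeq2 at an adjusted p under 0.1, where DESeq2 called 0.595% of all genes higher and 0.432% lower, and voom called 1 lower, *Slc38a11*, where it called 0.514% of all genes higher and 0.140% lower. By the unadjusted edgeR p (under 0.05) 3 were higher and 4 lower, against 5.15% of all genes higher and 7.38% lower. Of these 7, 1 higher and 3 lower reached 10 counts in embryos of 1 genotype only. Passing the filter in that way favours a difference, and nothing is read from the count. The lowest p-values were those of scarce transcripts, for which the counts are given. *Slc3a1*, the heavy chain of the cystine transporter of kidney, had 43 counts in the *Upf2*-null embryos, 4 of 8 of them at 0, and 1 count in the controls. *Slc36a4*, an amino acid carrier of the SLC36 family, had 1 count in the *Upf2*-null embryos and 83 in the controls, with 5 of 11 controls at 0. *Slc38a11* had 11 counts in *Upf2*-null embryos, 10 of them in 1 embryo, and 212 in controls, 120 of them in 1 embryo (adjusted p = 0.262 by edgeR).

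Genes of the metabolism of taurine and cysteine, among them those of glutathione synthesis, did not pass either. Of 14 of 17 such genes that could be tested, 7 were above 0 and 7 below, with a median of −0.01 and none called by edgeR, DESeq2 or voom. By the unadjusted edgeR p (under 0.05) 3 were lower and 0 higher, against 7.38% of all genes lower and 5.15% higher, and 1 of the 3, *Baat*, reached 10 counts in controls only. *Cth*, which splits cystathionine to cysteine, had 139 ± 34.5 CPM in 8 *Upf2*-null embryos, against 189 ± 49.9 CPM in 11 controls (± SD), below every control in 4 of 8 (log2 fold change −0.44 ± 0.16 SE; edgeR adjusted p = 0.262). *Mat2a*, the enzyme that makes S-adenosylmethionine, had 423 ± 53.3 CPM in 8 *Upf2*-null embryos, against 493 ± 71.1 CPM in 11 controls (± SD), which is −0.22 ± 0.09 (SE) as log2 fold change (edgeR, adjusted p = 0.295). *Baat*, which joins taurine to bile acids, had 0 counts in the 8 *Upf2*-null embryos and 39 in the controls, of which 8 of 11 were at 0.

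Among 22 genes of cell volume and organic osmolytes, 7 were above 0 and 15 below, with a median of −0.14 and none called by edgeR, DESeq2 or voom. By the unadjusted edgeR p (under 0.05) 2 were lower and 0 higher, a share near the 7.38% of all genes that were lower (5.15% higher), and 1 of the 2, *Lrrc8b*, reached 10 counts in controls only. *Aqp3*, an aquaporin that passes water and glycerol, had 54.7 to 260 CPM (median 88.4) in *Upf2*-null embryos and 100.1 to 295 CPM (median 217) in controls. In it 5 of 8 *Upf2*-null embryos were below every control (log2 fold change −0.86 ± 0.29 SE; edgeR adjusted p = 0.262). *Lrrc8a*, the required subunit of the volume-regulated channel that releases taurine, had 29.1 ± 13.7 CPM in 8 *Upf2*-null embryos, against 18.4 ± 9.87 CPM in 11 controls (± SD; adjusted p = 0.472 by edgeR), and *Lrrc8b*, another subunit, had 1 count in *Upf2*-null embryos and 44 in controls.

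Of 38 tested genes of amino acid sensing and of signalling through mTORC1, 20 were above 0 and 18 below, with a median of 0.02. None was called by edgeR, DESeq2 or voom. By the unadjusted edgeR p (under 0.05) 1 was higher and 0 lower, against 5.15% of all genes higher and 7.38% lower. *Impact*, an inhibitor of the amino acid sensor kinase GCN2, had 105 to 189 CPM (median 149) in *Upf2*-null embryos and 63.6 to 166 CPM (median 86.5) in controls. All 8 *Upf2*-null embryos were above the control median and 2 above every control (log2 fold change 0.52 ± 0.18 SE; edgeR adjusted p = 0.262). *Eif2ak4*, which encodes GCN2 itself, had 14.9 ± 8.91 CPM in 8 *Upf2*-null embryos, against 7.28 ± 5.44 CPM in 11 controls (± SD; adjusted p = 0.536 by edgeR). *Depdc5*, a subunit of a complex that restrains mTORC1 when amino acids are short, had 16.9 ± 8.41 CPM in 8 *Upf2*-null embryos, against 9.98 ± 5.41 CPM in 11 controls (± SD; adjusted p = 0.493 by edgeR).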

How the data were processed

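Single whole blastocysts, 8 *Upf2*-null and 11 control, were sequenced as 1 full-length cDNA library each. The deposited raw counts per Ensembl gene were made by the authors with STAR 2.5.2a (GRCm38), SAMtools, to drop PCR duplicates, and featureCounts of Subread. Their second deposited table holds a scaled signal, each count times 1 factor per embryo and so not per length: 100% of its values came back as whole reads within 0.01, and edgeR on those reads, an added alternative, called 30 genes higher and 3 lower. ERCC reads and the assembled transcripts' levels were not used here. No batch is given in the sources used here. Each library is 1 embryo, and all 19 counted as separate samples. Embryos of a genotype differed by far more than counting noise (chi-square per gene at least 10). Intervals cover the spread between embryos, which can be biological or technical.

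The comparison of genotypes used edgeR 4.0.16, with TMM factors, a robust quasi-likelihood fit without covariates and Benjamini-Hochberg adjustment (threshold 0.1), over the 17137 genes that reached 10 counts in any embryo. DESeq2 1.42.0 and limma 3.58.1 voom were alternatives, run in R 4.3.3. Log2 CPM used a prior count of 2, and permutation tests across embryos drew 100000 permutations, two-sided. Relations and orders used a threshold of 0.05 after adjustment. Levels per kb used the union of annotated exons and a pseudocount of 0.5 CPM per kb. The fits were tested on simulated data. Relations and orders used Python 3.11.15 with scipy 1.17.1.

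The transporters and all lists were chosen with earlier results of these data known. Named genes are the 10 transporters, the 3 genes of lowest p in each other list, *Atf4*, *Ddit3*, *Nanog*, *Gata6*, *Cdx2* and *Upf2*, and the 5 genes most like *Slc6a6*. Of the 10, 5 were found in the RefSeq promoter table. Alternatives were other tools, normalizations, filters and thresholds, a replicate block, and embryos left out. Added after seeing the data were the recovered reads, the 16 embryos of the block without it, and leaving out control embryo 5 and *Upf2*-null embryo 2 together.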

Additional observations from a re-analysis of the deposited data

Results flagged for a closer look

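Of 28 genes put to a test for a single embryo far from the other 7 in the *Upf2*-null group, 5 passed its threshold. Only 1 of the 5, *Slc38a1*, had a mean of at least 10 CPM in controls. The usual chance rate of 1 in 20 does not hold for counts near 0, and nothing is read from the number of genes. *Baat* was at 0 in all 8 *Upf2*-null embryos and had no value to test. *Slc38a1* was 38.3 CPM in *Upf2*-null embryo 2, and the next lowest had 81.3 CPM. *Slc6a9* was 1.22 CPM in *Upf2*-null embryo 3, and *Slc38a11* was 1.74 CPM in the same embryo. *Slc36a4* and *Lrrc8b* were each 0.218 CPM, a single count, in *Upf2*-null embryo 4. Both genes were at 0 in the other 7 *Upf2*-null embryos, so that any count there passes the threshold. Controls, of which there are 11, were not put to this test.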

How the results depend on the processing

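*Slc6a6* had a log2 fold change below 0 in all 31 alternatives (−1.03 to −0.84) and was called in 13 of them. These were 4 of the 19 that left out 1 embryo and 9 of the 12 other settings. All of them reuse embryos on which the set was chosen, so the shared sign is no further support. As the set was chosen on this call, its p-values are not given. Leaving out 1 embryo at a time gave 0 to 1 transporters called, 1 when the embryo dropped was *Upf2*-null 1, *Upf2*-null 3, control 2 or control 5, and 0 for each of the other 15. The number was also 0 at an adjusted p under 0.05 and without control embryos 2 and 4 together, and 1 without control embryo 5 and *Upf2*-null embryo 2 together. The cause of these changes was not tested.

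The replicate numbers are shared by embryos 1 to 8 of each genotype, and nothing in the labels pairs them. The deviations of same-numbered embryos correlated at −0.14 to 0.07, and 2 of 16 embryos correlated best with their own number. With the number as a replicate block 0 transporters and 0 genes in all were called (317 higher and 367 lower at an unadjusted p under 0.05 from edgeR; *Slc6a6* −0.88). The same 16 embryos without the block gave 0 transporters and 24 genes in all (*Slc6a6* −0.89).

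Of the other carriers voom called 1, *Slc38a11* (−3.50, adjusted p = 0.0701). Of the 3 related lists no gene was called under any alternative. Over all genes, edgeR called 33, DESeq2 176 and voom 112.

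At a threshold of 0.05 and leaving out 1 embryo at a time, r ran from 0.40 to 0.80 for *Slc38a1* and *Slc38a2*, from 0.35 to 0.63 for *Slc7a5* and *Slc3a2*, from −0.24 to −0.02 for *Slc7a11* and *Slc3a2*, and from −0.40 to 0.061 for *Slc6a6* and *Slc6a9*. The relation of *Slc38a1* and *Slc38a2* lost its call without *Upf2*-null embryo 2 or control embryo 5, and, adjusted over the 4 relations, in each genotype alone (0.84 in *Upf2*-null embryos, 0.76 in controls). That of *Slc7a5* and *Slc3a2* lost it when *Upf2*-null embryo 1, 2 or 3 was left out, or control embryo 2 or 5, and in controls alone (0.34). Without control embryo 5 and *Upf2*-null embryo 2 together the values were 0.18 and 0.28 (permutation test, adjusted p = 0.648 for each). For *Slc6a6* and *Slc6a9* r was 0.27 in *Upf2*-null embryos alone and 0.12 without those 2 embryos. Neighbours that differed in level numbered 3 to 5 over the controls left out in turn, with 5 without control embryo 5, and 3 under each other setting. Each setting had its own order, so the pairs need not be the same.

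The log2 fold change of *Cdx2*, 0.04, was −0.22 by voom, −0.32 with the block, −0.15 in its 16 embryos without it, −0.086 without control embryos 2 and 4, −0.12 without control embryo 5 and *Upf2*-null embryo 2, −0.063 in the scaled table and −0.23 to 0.19 with 1 embryo left out. That of *Gata6*, 0.08, was −0.034 without control embryo 5 and *Upf2*-null embryo 2. That of *Slc38a1*, near 0, changed sign in 15 of 31 alternatives, that of *Slc6a14* in 2, that of *Slc3a2* in 1 and that of *Slc7a11* in 1. *Slc7a11* and *Slc6a9* held no or few counts in most embryos.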
